A study of Mus musculus with 15 samples.

Results

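Somatic calls in 4 signalling genes, Rapgef3, Dgka, Rgs16 and Crlf2, were examined in haematopoietic stem cells (HSCs) of old mice. They were taken by gene name from the deposited table of all calls, and they made up 4 of the 30 genes and 4 of the 31 calls with values. A call made in both HSC libraries of a mouse has 2 entries in the table, so the 4 genes held 5 of 44 entries, 3 in AThi and 2 in ATlo libraries. The genes were chosen by name with the calls already known, so which fraction and which mouse held a call is a description.

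The mice were homozygous for Gfp-Lc3, which tags LC3, a protein of the autophagosome membrane, with GFP, and were described as old, with HSCs isolated at steady state. HSCs with low GFP signal were sorted as AThi, the autophagy-engaging cells, and HSCs with high signal as ATlo. Exome libraries were made from pellets of about 10000 bone marrow HSCs of each fraction and from the tail of the same animal, giving 5 AThi, 5 ATlo and 5 tail libraries from 5 mice. For every HSC library, tail DNA of its own mouse was the baseline for calling. Calls in the 4 genes came from mouse 1 and mouse 5. All HSCs of a pellet were sequenced together, so an allele fraction is an average over its cells. Expression of the 4 genes, and whether these calls alter their function, were not measured by exome sequencing.

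The 4 genes act at separate points of the pathways that carry outside signals into a cell. Rapgef3, also known as Epac1, is a guanine nucleotide exchange factor that binds cAMP and activates the small GTPase Rap1, which regulates integrin adhesion. Dgka, diacylglycerol kinase alpha, converts the lipid messenger diacylglycerol to phosphatidic acid and so limits signals that depend on diacylglycerol, such as those of protein kinase C. Rgs16 speeds the GTPase activity of G protein alpha subunits and shortens signalling from receptors of the chemokine receptor type. Crlf2 is the receptor chain that pairs with Il7r to bind the cytokine TSLP and signals through JAK kinases and STAT5.

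The 4 calls fell into different consequence classes. In Rapgef3 the listed change was a G-to-A substitution at position 97753872 of chromosome 15, and in Crlf2 a C-to-A substitution at position 109554925 of chromosome 5. The Dgka call was an A-to-C substitution at position 128723158 of chromosome 10, and the Rgs16 call was a deletion of the bases TT at position 153740522 of chromosome 1. Coordinates are printed as the lists give them, and the sources used here do not name their genome build. Against the gene models of GRCm38.p6, each of the 4 sites lay inside the gene of the same name, and 0 of the 4 lay inside a further gene.

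Rapgef3 carried a missense change, P580L, in exon 18. The coding change was C1739T, the same in all 4 annotated transcripts, with positions counted from the first base of the coding sequence. It falls on base 2 of codon 580, and by the genetic code any of the 4 proline codons CCA, CCC, CCG and CCT becomes a leucine codon, CTA, CTC, CTG or CTT, through this change. Which of the 4 codons the gene carries was not examined here.

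Crlf2 also carried a missense change, in exon 8 of each of 3 annotated transcripts. It was listed as R345M in the first transcript, R332M in the second and R334M in the third, because their coding sequences number the residue differently. The coding changes were G1034T, G995T and G1001T, each on base 2 of the codon. Of the arginine codons, only AGG becomes the methionine codon ATG by such a change.

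The Dgka substitution was annotated as intronic, with no transcript position listed. The Rgs16 deletion was annotated as splicing, a class for sites next to an exon boundary, and its distance to the exon was likewise not listed, so its effect on splicing is not given by the files. Missense, stop, frameshift, in-frame or splicing classes therefore held 3 of the 4 calls, beside 13 of the 31 calls with values over all genes. None of the 5 entries carried an identifier from the snp142 column of known variants (0 of 5), which was filled in 1 of the 44 entries.

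Rapgef3 was the call with the most reads behind it. In AThi cells of mouse 1 its allele fraction was 0.505 at a depth of 109 reads, which corresponds to an estimated 55 alternate reads (95% Wilson interval 0.412 to 0.597). In ATlo cells of the same mouse the fraction was 0.356 at 99 reads, an estimated 35 alternate reads (interval 0.266 to 0.452). A heterozygous autosomal variant present in every cell would give a fraction of 0.5, a value inside the AThi interval and above the ATlo interval. The call quality was 163.6 in AThi and 98.7 in ATlo, a ratio of 1.66. Divided by the estimated alternate reads, the quality was 2.97 in AThi and 2.82 in ATlo, so the quality per alternate read was close in both libraries.

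In tail DNA of mouse 1 the Rapgef3 site had 87 reads and an alternate fraction of 0.025, an estimated 2 reads (95% Wilson interval 0.00633 to 0.08). The fraction in AThi cells was 20.2 times and that in ATlo cells 14.2 times the tail fraction. Neither HSC interval overlapped the tail interval. The calls were themselves made by setting HSC reads against tail reads, so this separation is not independent of the selection and was not tested. All intervals treat reads as independent and cover no other error than that of counting them. The reads carry no molecular identifier and may repeat a molecule, so the intervals may be too narrow.

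Dgka was called in AThi cells of mouse 5. Its fraction was 0.26 at 23 reads, an estimated 6 alternate reads (95% Wilson interval 0.125 to 0.465), with a quality of 16.1. The tail library had 21 reads at the site and a fraction of 0.011, which rounds to 0 alternate reads (interval 0 to 0.155). Of the 4 genes it was the one with no estimated alternate read in tail, yet its HSC and tail intervals overlapped at these depths.

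Rgs16 was called in the same AThi library. Its deletion had a fraction of 0.237 at 22 reads, an estimated 5 alternate reads (95% Wilson interval 0.101 to 0.434), with a quality of 14.6. In tail it had 29 reads and a fraction of 0.035, an estimated 1 read (interval 0.00611 to 0.172). The HSC depth was below the tail depth here, at 0.759 times, and the HSC fraction was 6.77 times the tail fraction. The Dgka and Rgs16 fractions lay well inside each other's intervals. The call lists held 4 short insertions or deletions with values, of which 0 were called in both fractions of a mouse.

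Crlf2 was called in ATlo cells of mouse 5. Its fraction was 0.313 at 16 reads, an estimated 5 alternate reads (95% Wilson interval 0.142 to 0.556), with a quality of 16. In tail the site had 17 reads and a fraction of 0.054, an estimated 1 read (interval 0.0105 to 0.27), so the HSC fraction was 5.8 times that in tail. Its tail fraction stood at rank 42 of 44 entries and its HSC depth at rank 2, counted from the lowest. The interval included 0.5, and it also included the Dgka and Rgs16 fractions in AThi cells.

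**Figure D1:**
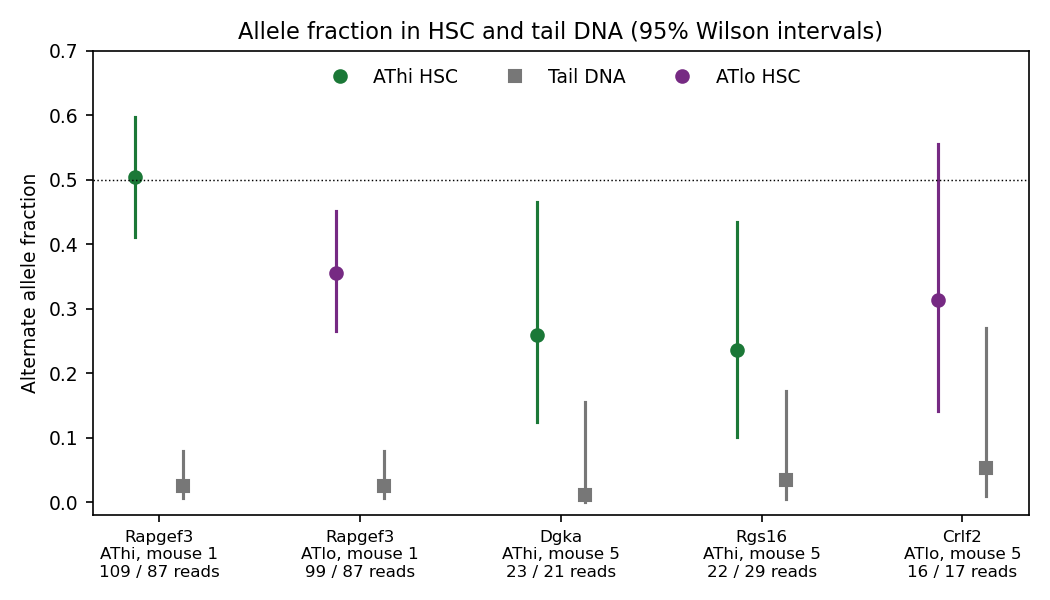
Alternate allele fraction (y axis) of each of the 5 entries in the HSC library (circles) and in tail DNA of the same mouse (squares), with 95% Wilson intervals as bars; labels give HSC and tail read depths, and the dotted line marks 0.5. The Rapgef3 intervals stand clear of tail, whereas the Dgka, Rgs16 and Crlf2 intervals, at 16 to 23 HSC reads, overlap those of tail.

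The call in both fractions was that in Rapgef3, and the calls in Dgka, Rgs16 and Crlf2 were each made in a single fraction. Over all genes with values, 41.9% of calls were made in both fractions, 32.3% in AThi only and 25.8% in ATlo only, and with 1, 2 and 1 of the 4 genes in these classes nothing is read from the members' counts. Mouse 5 had 4 calls, 3 of them in these genes and 0 of them in both fractions, while mouse 1 had 8 calls with 6 in both. For Dgka and Rgs16 the lists give no depth or fraction in ATlo cells, and for Crlf2 none in AThi cells. Whether these alleles were absent from the other fraction was therefore not measured, and no difference between fractions can be given for them.

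The study asked whether AThi and ATlo HSCs differ in clones or mutation burden, and of the 4 genes Rapgef3 alone allows the fractions to be compared. Its fraction was 0.149 higher in AThi than in ATlo cells, with a 95% Newcombe interval of 0.0163 to 0.278 from the estimated reads. By Fisher's exact test, two-sided, p was 0.0355, and after Benjamini-Hochberg adjustment over the 13 calls made in both fractions it was 0.154, above the threshold of 0.05. The share of these 13 calls that passed after adjustment was 0%, and the share with an unadjusted Fisher's exact p under 0.05 was 23.1%, or 7.69% for those higher in AThi, which was Rapgef3 itself. By size the Rapgef3 difference was the third of 13. The test compares reads of 2 libraries from 1 animal and has no replicate in another mouse. Like the interval, it treats reads as independent, and reads that repeat a molecule would make p too small.

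The other calls shared by both fractions of mouse 1 come from the same libraries, at other depths and allele fractions. Their differences are given as a description and are no measure of technical spread alone. Among the 4 autosomal calls, all 4 had a higher fraction in AThi, by 0.007 to 0.149, with Rapgef3 the highest. Bcam, which encodes a laminin-binding adhesion molecule, stood 0.084 higher in AThi, with a Newcombe interval of -0.115 to 0.267 that holds the Rapgef3 difference. Zmynd11, which encodes a reader of modified histone H3, stood 0.035 higher, and its interval of -0.0932 to 0.16 also holds the Rapgef3 difference. The endothelial receptor gene Robo4 stood 0.007 higher, with an interval of -0.0999 to 0.118 that does not hold it. The 2 calls on chromosome X had differences of -0.037 in Shroom2 and -0.004 in Rhox2e. Of the autosomal shared calls, 0 of 3 in mouse 2 and 1 of 3 in mouse 4 were higher in AThi. The 4 autosomal calls of mouse 1 thus had the same sign, but the intervals of Bcam, Zmynd11 and Robo4 each included 0. All come from the same libraries and may not be independent of each other. Whether the Rapgef3 difference exceeds that of the others was not tested.

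**Figure D2:**
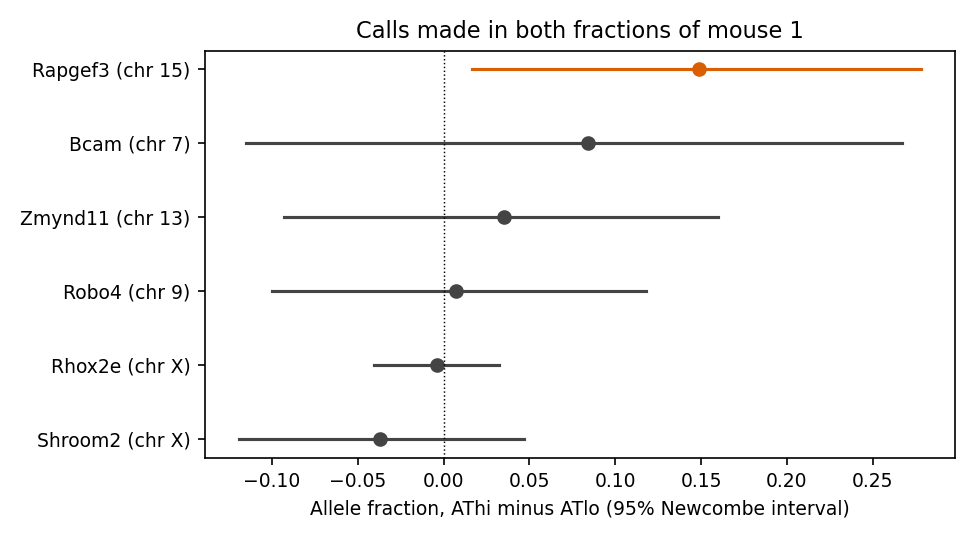
Difference in allele fraction, AThi minus ATlo (x axis), for the 6 calls made in both fractions of mouse 1 (y axis), with 95% Newcombe intervals as bars. Rapgef3, in orange, has the largest difference of the 6, 0.149, and its interval overlaps those of all the other calls, autosomal and on chromosome X.

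The quality score of the caller followed the number of alternate reads. Over the 44 entries, Pearson's r between quality and estimated alternate reads was 0.997 and Spearman's rho was 0.956. This is a description only, since both quantities come from the same reads and calls in both fractions enter more than once. Quality per alternate read was 2.68 in Dgka, 2.92 in Rgs16 and 3.2 in Crlf2, beside a median of 2.82 over all entries (range 1.08 to 3.55). The median was 1.6 over the 18 calls in a single fraction and 2.91 over the 26 entries of calls in both. Dgka thus stood below the median of all entries and Rgs16 and Crlf2 above it. All 3 stood above the median of single-fraction calls, in which they are included. Over the 4 entries of mouse 5, quality per alternate read ran from 2.68 to 3.43 with a median of 3.06. The highest of these belonged to a gene outside the signalling genes, so this level was not particular to them.

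By rank among the 44 entries, counted from the lowest, the Rapgef3 qualities stood at 36 in AThi and 27 in ATlo. Those of Dgka, Crlf2 and Rgs16 stood at 12, 11 and 10. Rgs16 and Crlf2 shared the lowest number of estimated alternate reads in the table, 5, with 1 further entry. Entries with at most 6 such reads numbered 7, and all 7 were calls in a single fraction, as were all 13 entries with a quality below 20.

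**Figure D3:**
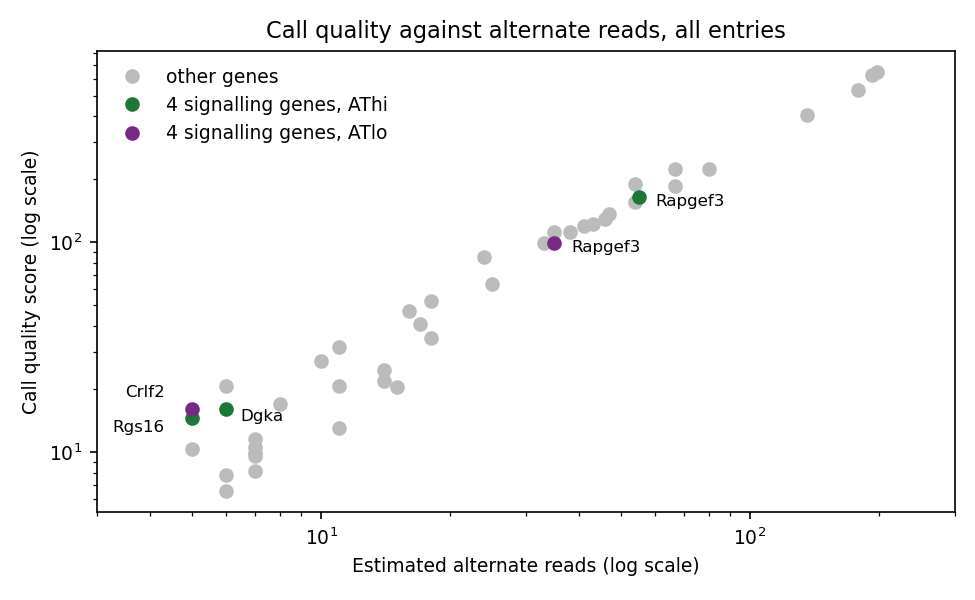
Call quality score (y axis, log scale) against estimated alternate reads (x axis, log scale) for all 44 entries, with the 4 signalling genes in colour and other genes in grey. The Rapgef3 entries lie at 35 and 55 alternate reads, and Dgka, Rgs16 and Crlf2 lie at 5 or 6 reads with qualities from 14.6 to 16.1.

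Depth at these sites differed between the mice. HSC depth at the Rapgef3 site reached 72.7% of the planned coverage of 150 in AThi and 66% in ATlo. At the sites of mouse 5 it reached 15.3% for Dgka, 14.7% for Rgs16 and 10.7% for Crlf2. Tail depth, planned at 30, was 290% of plan for Rapgef3, 70% for Dgka, 96.7% for Rgs16 and 56.7% for Crlf2. Over all calls of mouse 5 the HSC depth ran from 16 to 23 reads, while in mouse 1 it ran from 43 to 204 with a median of 92. Intervals of HSC and tail overlapped in 4 of 4 entries of mouse 5. Over the table they overlapped in 16 of 18 entries called in a single fraction and in 0 of 26 called in both, so Dgka, Rgs16 and Crlf2 were like most single-fraction calls in this respect. The part of depth in these differences was not tested.

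Lists of the wider pathways, drawn up with the earlier results known, were then searched for further calls. The cAMP and Rap list held 20 genes, the diacylglycerol and lipid list 20, the G protein list 20 and the list of cytokine receptors and JAK-STAT genes 22. Of the 78 list genes other than the 4 members, among them Rapgef4, Dgkz, Rgs1, Il7r, Jak2 and Stat5b, 0 had a call with values in any AThi or ATlo library. Over the whole series 30 genes had a call with values, or 0.137% of the 21900 protein-coding genes of the reference table, so a count at or near 0 is the background for lists of this size and nothing is read from it. The list genes were all present in the reference gene table (82 of 82). Which of them were covered by reads was not analysed here, so a count of 0 does not show that they were free of mutations.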

How the data were processed

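Exome libraries of AThi and ATlo HSCs and tail DNA were grouped by the status and mouse number in the labels. Nothing in the sources used here says which of the 2 sequencing services handled which mouse. The submitters' processing notes name Bowtie2, and the name of the deposited calls Mutect2. The sources used here give no version, filter or genome build. Read depth per site is a count of reads, per the file headers. The alternate allele fraction is the caller's estimate, per the file headers: it equalled whole reads over depth, within 0.0005, in 2 of the 5 entries of the 4 genes. The deposited quality is a score on an unstated scale. All 5 entries had the same values in the deposited lists of their mice (5 of 5).

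The number of alternate reads was taken as the rounded product of depth and fraction. Fisher's exact test, two-sided, compared them between AThi and ATlo for all 13 shared calls with values, with Benjamini-Hochberg adjustment, and was checked on simulated data. In these either all calls were equal or all differed by more than Rapgef3 did. The check therefore does not cover a difference of the size seen in Rapgef3. It also gave all calls the same fractions and drew reads as independent. Calls of unlike fractions, as in the data, and reads that repeat a molecule are thus not covered either. Rankings and intervals used 44 entries; a fraction above 0 in tail is an estimate and does not prove that such a read was seen. Some lines of the table are not analysed here. The 4 genes, lists and tests were chosen with earlier results of these data known, and the rule for named genes was these 4, with others only where a result turned on them. Alternatives were other tests, adjustments and rounding, minimums of reads, depth, fraction, tail depth and quality, and each mouse left out. The lists hold calls only, so depth elsewhere was not used here. The stated design has 6 pairs, and 5 mice were used here. Gene names and spans were checked on GRCm38.p6, and no genome sequence around the sites was used here. Statistics were computed with SciPy 1.17.1 and NumPy 2.4.6 under Python 3.11.15, and plots were drawn with Matplotlib 3.10.9.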

Additional observations from a re-analysis of the deposited data

How the results depend on the processing

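The Rapgef3 difference kept its direction in all 13 alternatives run, at 0.149 to 0.151. Its adjusted p ran from 0.142 to 0.412 by Fisher's exact test, a chi-squared test or Boschloo's exact test. It was above the threshold of 0.05 each time, so the difference passed in none of these alternatives. Most of these leave the difference itself as it is by construction, and leaving out mouse 1 gave no value, so this is no measure of stability. An adjustment over the autosomal calls of mouse 1, giving 0.142, was added after the data were seen. Of the 5 entries, 2 remained with at least 10 alternate reads, 2 at an HSC depth of at least 50, 2 at a tail depth of at least 30 and 2 at or above the median quality of 43.85, in each case those of Rapgef3. At an HSC fraction of at least 0.3, 3 remained, Rapgef3 in both libraries and Crlf2. With no estimated alternate read in tail 1 remained, and with a tail fraction under 0.02 also 1, in both cases Dgka; with tail reads rounded down, a setting added later, 2 remained, Dgka and Crlf2. With each mouse left out the count ran from 2, without mouse 5, to 5, and was 3 without mouse 1. The fractions of Dgka, Rgs16 and Crlf2 stayed inside their intervals when alternate reads were rounded up or down. No paired analysis was possible because the call in each gene came from 1 mouse, and for Rapgef3 both libraries compared are already those of the same animal. Depths of 16 to 23 reads limit the calls of mouse 5.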

Other observations

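The A-to-C change in Dgka belongs to the substitution class A>C, or T>G on the other strand. That class made up 5 of the 18 calls in a single fraction and 0 of the 13 calls in both. It was singled out after its values were seen and was not tested. The C-to-A call in Crlf2 and the G-to-A call in Rapgef3 lie outside it.

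Nonsynonymous calls numbered 9 of the 31 calls with values, of which 6 were in both fractions, as was Rapgef3. Crlf2 was among the others. Over all calls with values, 13 of 31 (41.9%) were in both fractions, and the difference between these shares was not tested.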
